A study of Mus musculus with 9 samples.

Results

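Il1r2, Arg2, Pilra, Slpi and Lpcat2 are 5 genes of myeloid cells, most of them known for damping inflammation. Their values were taken from 9 array features, out of 11552 on the array, to which the platform annotation gives one of these symbols alone. Il1r2 and Pilra had 2 features each, Lpcat2 had 3, and Arg2 and Slpi had 1 each. The genes were chosen because of earlier results on these same arrays: Il1r2, Arg2, Pilra and Lpcat2 on the average over all arrays, and Slpi on the young bone arrays. Their ratios in those comparisons are therefore given as a description, with no test.

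Each of the 9 arrays held RNA of a castrated C57BL/6 mouse against RNA of a matched sham-operated mouse, labelled with Cy3 and Cy5. There were 3 groups of 3 arrays, all with mice castrated at 7 weeks: specimens labelled bone marrow of old mice at 59 weeks, bone marrow of young mice at 17 weeks, and bone of young mice at 17 weeks. Each replicate was a separate pair of mice per the design text. That text speaks of separating marrow from bone only for the young mice, so the bone content of the old specimens is unknown. Values are ratios between the channels, read as log2 (a ratio of -1 is a halving). A ratio carries no level, so neither the labelled tissue nor the myeloid origin of these transcripts could be checked against marker levels.

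Interleukin-1 acts through a signalling receptor on its target cells. The receptor encoded by Il1r2 binds the same cytokine but lacks the signalling domain, and so serves as a decoy. Arg2 encodes the mitochondrial arginase, which splits arginine into ornithine and urea and competes with nitric oxide synthase for its substrate. Pilra encodes a paired immunoglobulin-like receptor that carries an inhibitory motif in its cytoplasmic tail. Slpi encodes a secreted inhibitor of neutrophil serine proteases such as elastase and cathepsin G. Lpcat2 encodes an acyltransferase of lysophospholipids that also makes platelet-activating factor, a lipid mediator of inflammation, so it is not itself a brake. Neutrophils and monocytes make up a large part of bone marrow.

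Which channel stands on top of the deposited ratio is given nowhere, and values were read in 2 ways. The castrated-over-sham reading takes every array as castrated over sham, and it is the likely one because the label of each array names castrated RNA against sham RNA. The channel reading takes the values as Cy5 over Cy3 and turns the sign on the 3 arrays that carried castrated RNA in Cy3. These are old replicate 2, young marrow replicate 2 and young bone replicate 3. On the other 6 arrays both readings are the same. Arrays carried 8290 to 10995 values with an SD across features of 0.192 to 0.455. The widest was old replicate 1, which had a median of -0.12 over the 8885 features tested, against -0.04 to 0.01 on the other arrays. All 9 features of the 5 genes had a value on every array and were tested.

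The deposited ratios of the 5 genes were almost all negative, which is the sense of less RNA in castrated mice under the likely reading. With the features of a gene averaged, 44 of 45 values lay below 0, and 6 of the 9 features were below 0 on all 9 arrays. Among all 7544 features with a value on every array, 176 (2.33%) did so. The genes were chosen on these values, so nothing is read from the comparison. In whole tissue, fewer cells of a type and less RNA per cell cannot be told apart.

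Il1r2 feature 4832 stood at -0.60, -0.67 and -0.38 on old replicates 1 to 3, at -0.49, -0.86 and -0.10 in young marrow, and at -0.99, -1.02 and -0.40 in young bone. The lowest values were the young bone pair with castrated RNA in Cy5, the highest was young marrow replicate 3, and the groups overlapped. Feature 5024, which carries the same accession, differed from it by 0.01 to 0.17 and stood at 0.00 on young marrow replicate 3. The SD between the features on an array was 0.056, against 0.321 between arrays within groups, so that the spread of Il1r2 lay between the arrays rather than between its spots. Averaged over its features, Il1r2 gave -0.525 ± 0.155 in the old group, -0.47 ± 0.40 in young marrow and -0.78 ± 0.35 in young bone (SD, n = 3 each).

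Arg2, with 1 feature, stood at -0.53, -0.65 and -0.05 in the old group, at -0.62, -0.67 and -0.24 in young marrow, and at -0.46, -0.92 and -0.73 in young bone. All 9 values were negative and the groups overlapped. Old replicate 3 was near 0, while the other 2 old arrays lay within the range of the young ones. The mean ratio was -0.41 ± 0.32 in the old group, -0.51 ± 0.24 in young marrow and -0.70 ± 0.23 in young bone (SD, n = 3 each).

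Slpi, the antiprotease, stood at -0.44, -0.63 and 0.05 in the old group, at -0.60, -0.87 and -0.20 in young marrow, and at -0.35, -0.67 and -1.14 in young bone. The value of old replicate 3 was the 1 gene value of the 45 above 0. In each group the lowest value belonged to the array with castrated RNA in Cy3. By layout, Slpi averaged -0.37 ± 0.27 on the 6 arrays with castrated RNA in Cy5 and -0.88 ± 0.26 on the 3 arrays with it in Cy3 (SD).

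Pilra feature 5626 stood at -0.70, -0.53 and -0.42 in the old group, at -0.74, -0.57 and -0.48 in young marrow, and at -0.66, -1.11 and -0.14 in young bone. Feature 6446, which has another accession, stood at -0.99, -0.37 and -0.44 in the old group, at -0.52, -0.33 and -0.50 in young marrow, and at -0.25, -0.68 and -0.30 in young bone. Both were negative on every array, but they disagreed by up to 0.43 (young bone replicate 2), and the groups overlapped in each. The SD between the features on an array was 0.182, against 0.246 between arrays within groups, so the choice of feature mattered more for Pilra than for Il1r2. By layout, the means of Pilra ran opposite to those of Slpi. They were -0.62 ± 0.20 on the 6 arrays with castrated RNA in Cy5 and -0.37 ± 0.13 on the 3 arrays with it in Cy3 (SD), and the layouts overlapped. The fitted term for the layout was -0.136 (SE 0.084) and -0.115 (SE 0.073) in the Pilra features, against 0.256 (SE 0.074) for Slpi.

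Lpcat2 feature 6679 stood at -0.88, -0.51 and -0.40 in the old group, at -0.65, -0.55 and -0.54 in young marrow, and at -0.08, -0.81 and -0.64 in young bone. Its young marrow arrays lay close together, within the wider range of both other groups. Features 1226 and 1418, of the same accession, gave 0.04 and -0.07 on young bone replicate 1 and were negative on all other arrays. The 3 features lay at most 0.31 apart, on young bone replicate 3. Lpcat2 hardly differed by layout, with -0.50 ± 0.29 on the arrays with castrated RNA in Cy5 and -0.49 ± 0.07 on those with it in Cy3 (SD). Il1r2 gave -0.57 ± 0.36 with castrated RNA in Cy5 and -0.64 ± 0.24 with it in Cy3. Arg2 gave -0.47 ± 0.30 with castrated RNA in Cy5 and -0.68 ± 0.04 with it in Cy3.

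**Figure D1:**
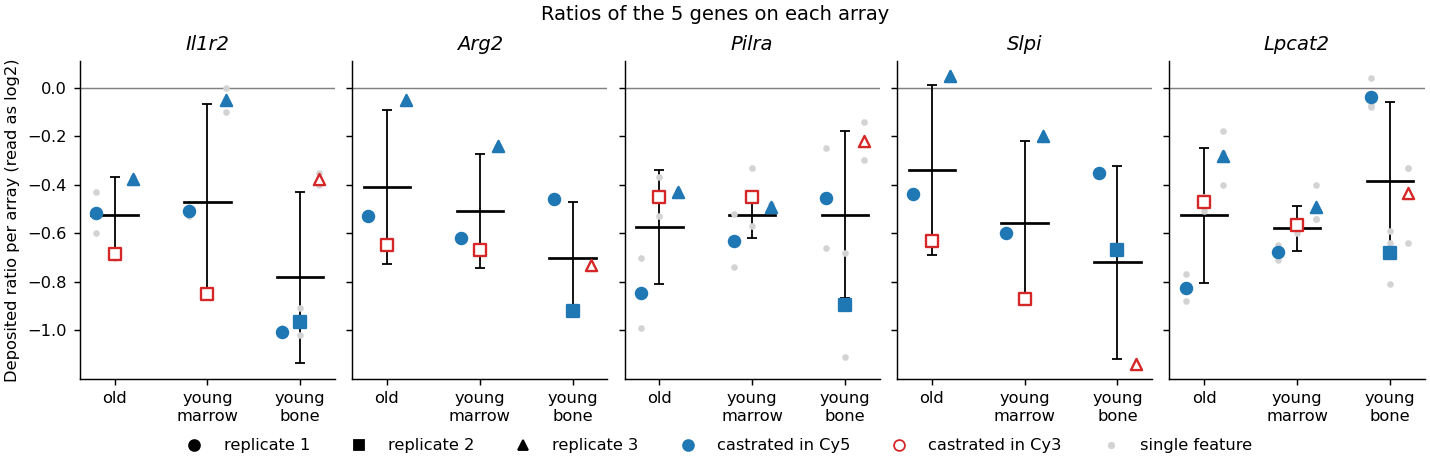
Deposited ratio (vertical axis, read as log2) of the 5 genes on each array, by group, with the mean and SD of 3 arrays as black bars, the mean over a gene's features as large symbols and single features as grey dots. Nearly all values lie below 0, the groups overlap for every gene, and for Slpi the open red symbols (castrated RNA in Cy3) are the lowest of each group, at -0.63, -0.87 and -1.14.

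The windows upstream of Slpi and Pilra are shown because, of the windows found, they held the most matches to motifs of myeloid factors. Their high counts of matches are therefore no result. Each is the 250 bases before the transcript start in RefSeq, build GRCm38.p6, written 5′ to 3′ on the gene's strand, with motif matches in capitals. The Slpi window lies on the minus strand at chr2:164356508-164356757 and the Pilra window on the minus strand at chr5:137836279-137836528.
Slpi: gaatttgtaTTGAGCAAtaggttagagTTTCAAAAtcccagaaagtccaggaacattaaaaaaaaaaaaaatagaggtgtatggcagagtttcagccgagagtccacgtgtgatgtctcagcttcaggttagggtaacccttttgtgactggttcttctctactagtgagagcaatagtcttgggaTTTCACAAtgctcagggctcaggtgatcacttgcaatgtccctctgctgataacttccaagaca
Pilra: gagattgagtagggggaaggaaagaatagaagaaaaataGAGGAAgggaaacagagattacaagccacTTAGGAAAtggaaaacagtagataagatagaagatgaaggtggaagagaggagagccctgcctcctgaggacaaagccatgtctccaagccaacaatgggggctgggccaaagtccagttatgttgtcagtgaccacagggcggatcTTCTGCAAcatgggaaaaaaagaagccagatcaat

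The capitals mark 3 motifs searched on both strands, which did not overlap each other in these windows. The loose C/EBP pattern TTNNGNAA had 3 matches in Slpi, 2 in Pilra, 1 in Lpcat2 and 0 in Il1r2, and 36.8% of the 32851 promoters in the table hold it. GAGGAA, the ETS core bound by PU.1, had 1 match, in Pilra, and 23.3% of promoters hold it. AGAACA, a half-site of the androgen and glucocorticoid receptors, was in none of the 4 windows, and 16.1% of promoters hold it. The matches are letters in a sequence and were not tested as binding sites. The Il1r2 window (chromosome 1, 40085843 to 40086092) lies within the annotated span of the gene, which begins at 40084692. Promoters of 4 of the 5 genes were matched, all but that of Arg2.

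Relative to the other features of an array, the 5 genes were mostly in the low tail. They were chosen on ratios of these same arrays, so low ranks follow from the choice and are only a description. Gene means over features were set against single features. The rank was taken as the percent of features on that array with a lower ratio, which does not depend on the spread of the array. The median rank over the 9 arrays was 0.56% for Arg2, 0.76% for Slpi, 1.18% for Il1r2, 1.97% for Pilra and 2.0% for Lpcat2. Pilra was the steadiest, with ranks between 0.14% and 17.3%. Each of the other 4 genes had at least 1 array near the middle: Slpi at 62.7% and Arg2 at 38.9% on old replicate 3, Il1r2 at 42.6% on young marrow replicate 3, and Lpcat2 at 43.2% on young bone replicate 1. The lowest rank of any was that of Slpi on young bone replicate 3, at 0.05%.

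**Figure D2:**
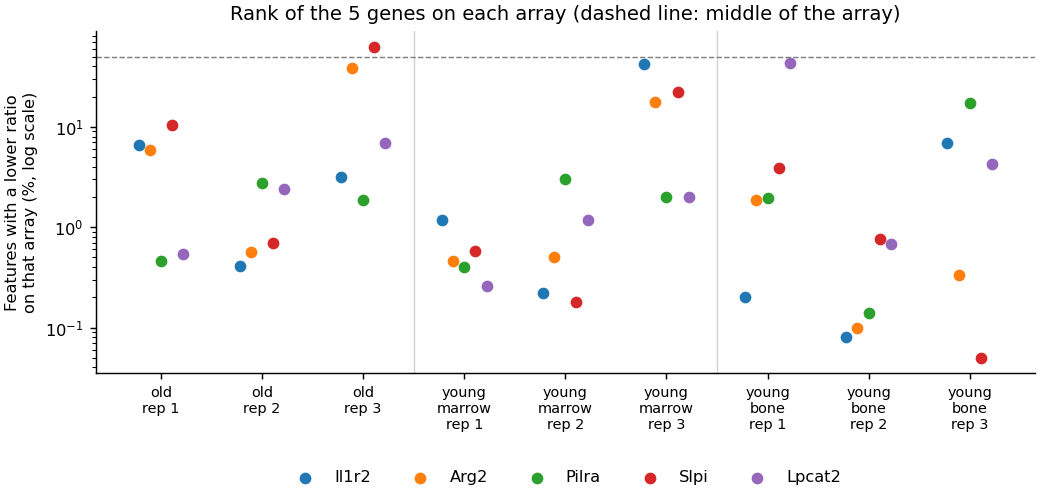
Rank of each gene on each array (vertical axis, log scale), as the percent of features on that array with a lower ratio; points are gene means over features and the dashed line marks the middle of the array. On old replicate 2, young marrow replicates 1 and 2 and young bone replicate 2 all 5 genes sit near the bottom (0.08% to 3.01%), while old replicate 3 spreads Pilra (1.88%) and Slpi (62.7%) far apart.

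The ratios of the genes differed from array to array. Their closeness was measured as the mean absolute difference of the ratios over the 9 arrays. The closest pairs were Pilra and Lpcat2 (0.133) and Arg2 and Slpi (0.138), and the farthest pair was Pilra and Slpi (0.339). Features of 1 gene also differed, with a median gap on an array of 0.04 for Il1r2, 0.12 for Lpcat2 and 0.22 for Pilra. The closest pairs of genes thus lay no farther apart than the features of Pilra. On young marrow replicate 1 all 5 lay within 0.167 of each other. On young bone replicate 1 they spanned 0.968, with Il1r2 lowest and Lpcat2 highest. On young bone replicate 3 they spanned 0.92, with Slpi lowest and Pilra highest.

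Among 5569 named features with a value on all arrays, those nearest to each gene by the same measure included other leukocyte genes. For Il1r2 they were Arg2 (0.20), Mpeg1, a pore-forming protein of macrophages (0.218), and the annexin Anxa3 (0.221). For Arg2 they were both features of Ctsg, the neutrophil cathepsin G (0.132 and 0.138), and Slpi. For Pilra they were Anxa3 (0.109), Cep19 (0.111) and the guanine deaminase Gda (0.113). For Slpi they were Arg2 and both features of Ccr2, a chemokine receptor of monocytes (0.203 and 0.206). For Lpcat2 they were the phosphatase Ptpre (0.103), Anxa11 (0.113) and the matrix protein Tgfbi (0.116). The median feature lay 0.494 to 0.592 away. These distances are descriptions over arrays that share group, layout and spread. The average of a feature was not removed before its distance was taken. The genes were chosen on ratios of these same arrays, which were mostly negative. Features with similarly negative averages are therefore near them, and the median feature is far, as a result of the choice. Whether the near features vary with these genes from array to array was not tested.

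The fitted ratios, from limma with 1 coefficient per group and a dye term, put the 5 genes close to each other under the castrated-over-sham reading. In the average over groups the 9 features lay between -0.62 (Slpi, SE 0.07) and -0.45 (Pilra feature 6446, SE 0.07). The genes were chosen on this average, or on its young bone part for Slpi. Their shared sign and closeness therefore follow from the choice and are no result. Under the channel reading the same averages lay between -0.14 and 0.26, since the 3 turned arrays then oppose the other 6. Pilra was below 0 under both readings in both features, at -0.14 (SE 0.07) and -0.12 (SE 0.08) under the channel reading. Slpi stood at 0.26 (SE 0.09) there, Arg2 at 0.11, Il1r2 at 0.02 and 0.04, and Lpcat2 between -0.03 and 0.01. On the 6 arrays where the readings are the same, the gene means were below 0 on all 6 for Il1r2, Arg2, Pilra and Lpcat2, and on 5 for Slpi. These arrays are part of those the genes were chosen on, so this too is a description.

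Il1r2 had the widest range over the groups under the channel reading. Feature 4832 stood at -0.56 in the old group, -0.49 in young marrow and -0.81 in young bone under the castrated-over-sham reading (SE 0.16 each). Under the channel reading it stood at 0.10 in the old group, 0.30 in young marrow and -0.33 in young bone (SE 0.11 each). Slpi, by contrast, was at 0.29, 0.23 and 0.25 under the channel reading in old, young marrow and young bone, against -0.43, -0.64 and -0.81 under the castrated-over-sham reading. Without young marrow replicate 2, the fitted young marrow value of Il1r2 feature 4832 was -0.19 in place of -0.49.

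**Figure D3:**
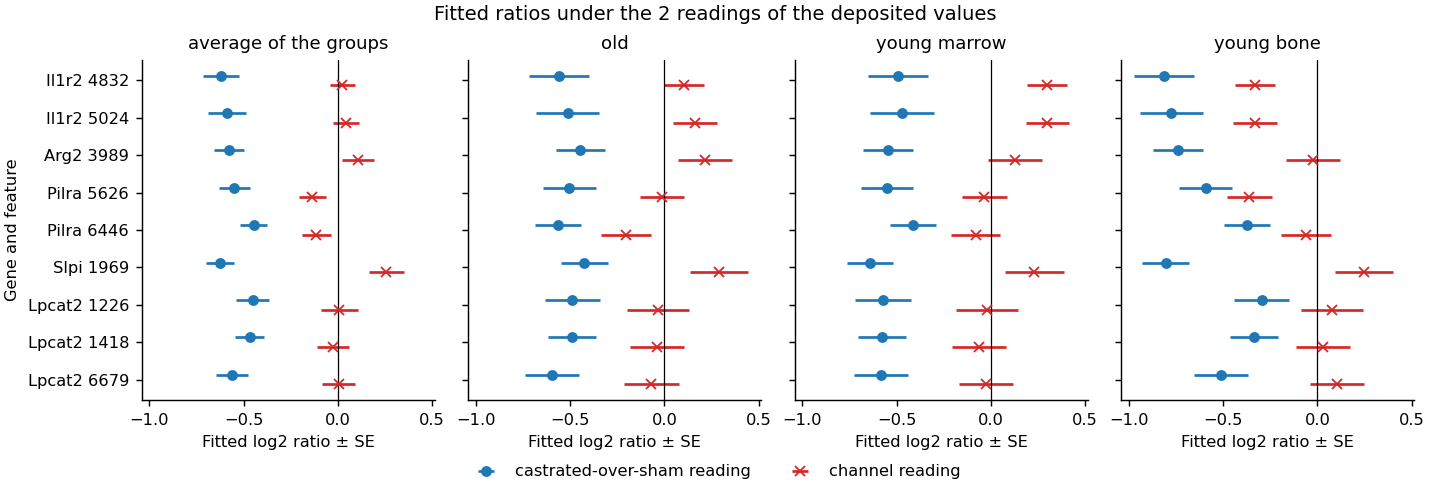
Fitted log2 ratio with its SE (horizontal axis) of the 9 features in the average and in each group, under the castrated-over-sham reading (blue points) and the channel reading (red crosses). All blue points lie below 0, while the red crosses of the average lie between -0.14 and 0.26 and those of Il1r2 change sign between young marrow (0.30) and young bone (-0.33).

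Whether the response differed between old and young mice, and between marrow and bone, was tested as differences between the groups. All mice were castrated at the same age, so the old mice were also longer past castration. Age and time since castration therefore cannot be told apart in either difference from the old group. Old minus young bone differs in the labelled tissue as well. The genes were not chosen on the differences between groups, except that Slpi was chosen in young bone. Its differences from young bone are therefore not tested. Of 25 differences, 0 passed with limma and Benjamini-Hochberg adjustment over all features, and 0 had an unadjusted p under 0.05; the adjusted p lay between 0.535 and 0.988. Of the 8885 features, 0 (0%) passed in old minus young marrow, 0 (0%) in young marrow minus young bone and 1 (0.0113%) in old minus young bone. That feature belongs to Xist, the RNA that silences an X chromosome, at -1.13 (SE 0.13, adjusted p = 0.045), and it is named after its value was seen.

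In old minus young marrow, Slpi gave 0.22 (SE 0.17, 95% interval -0.16 to 0.59, limma adjusted p = 0.535), closer to 0 in the old group, with an interval that includes 0. It was 0.10 without old replicate 3 or young marrow replicate 1, and 0.36 without old replicate 1. Il1r2 feature 4832 gave -0.07 (interval -0.55 to 0.42), Arg2 0.10 (-0.30 to 0.50), Pilra feature 5626 0.05 (-0.38 to 0.47) and Lpcat2 feature 6679 -0.02 (-0.45 to 0.42). The intervals include 0 for every feature, so the order of the old and young marrow values is not set for any of the 5 genes.

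In old minus young bone, Arg2 gave 0.29 (SE 0.18, interval -0.11 to 0.70, limma adjusted p = 0.705), the smallest unadjusted p of the 25 (0.136). Il1r2 gave 0.25 and 0.26 in its features, Pilra 0.09 and -0.19, and Lpcat2 -0.19, -0.15 and -0.09. For Slpi the difference was 0.38 (SE 0.17), given without a test. The Arg2 difference was 0.14 without old replicate 3 or young bone replicate 2, and 0.29 to 0.40 without any other array. The features of Pilra pointed opposite ways here, and the intervals of both include 0.

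In young marrow minus young bone, Il1r2 gave 0.32 (SE 0.22, interval -0.17 to 0.81, limma adjusted p = 0.957) and 0.30 in its features. Lpcat2 ran the other way, with -0.28, -0.24 and -0.07, and Arg2 gave 0.19. Leaving out 1 array moved Il1r2 feature 4832 between 0.12, without young marrow replicate 3, and 0.65, without young bone replicate 3. Under the channel reading the Il1r2 differences were 0.63 in both features, with unadjusted p of 0.0019 and 0.0027, but an adjusted p of 0.998 by limma. Together with old minus young bone (0.43 and 0.49), these were the 4 of 25 with an unadjusted p under 0.05 under that reading, and 0 of 25 passed. Of all features, 1.67% had such a p in young marrow minus young bone and 4.09% in old minus young bone under that reading. The intervals reach from -0.73 to 0.82. In simulated data of this design, 0% of differences of 0.5 and 71.5% to 77% of differences of 1 were recovered. The simulated noise was normal, independent and of equal spread on all arrays, unlike the arrays here, and 200 of 8885 features were changed. In that setting, no difference of 0.5 was recovered with 3 arrays per group. Sizes between 0.5 and 1 were not simulated, so recovery at the size of many of these ratios is unknown.

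**Figure D4:**
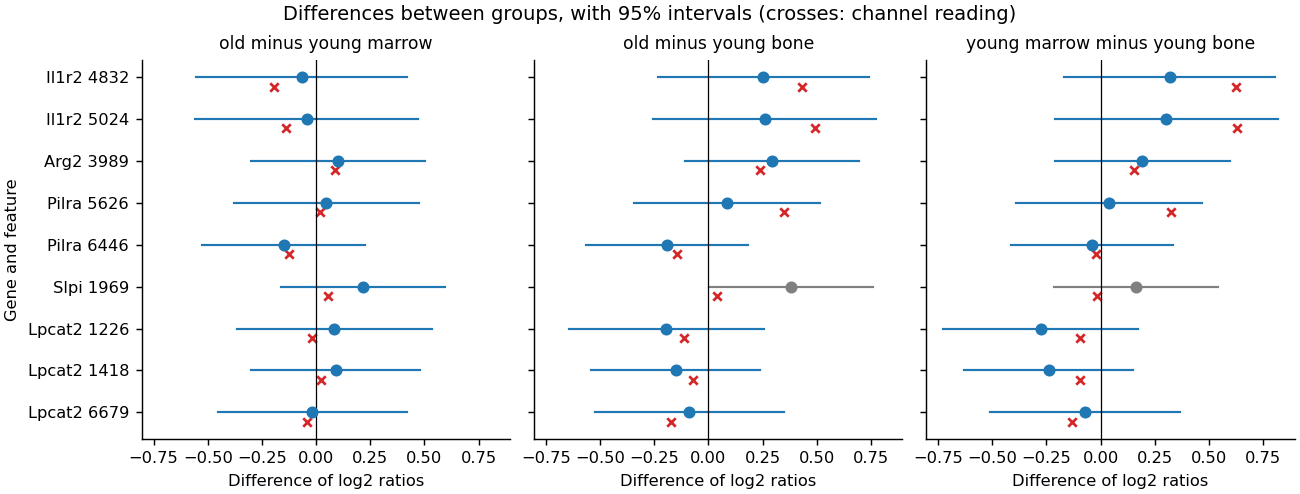
Differences of fitted log2 ratios between groups (horizontal axis) for the 9 features, with 95% intervals from limma under the castrated-over-sham reading and red crosses for the channel reading; grey marks the Slpi differences that were not tested. All blue intervals include 0, and the crosses of Il1r2 stand farthest to the right, at 0.63 in young marrow minus young bone.

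Markers of blood cells moved on the same arrays. The granulocyte list, with 5 genes measured in 7 features, had a negative median on all 9 arrays, between -0.65 and -0.14, and was nearest 0 on old replicate 3. On that array Arg2 (-0.05) and Slpi (0.05) were also near 0, while Il1r2 (-0.375), Pilra (-0.43) and Lpcat2 (-0.283) lay below the granulocyte median. All 7 features (Anxa1, Lyz2, Padi4, Ctsg and Prtn3) were down in the average by limma, with a median of -0.55, against 2.03% of all features down and a median over all features of -0.004. Of the 18 genes listed, 5 were tested. The marker lists were chosen with earlier results of these data known, so their counts are descriptions. The count of 7 was 2 without young marrow replicate 2, 3 without old replicate 2, 4 without young bone replicate 3, and 5 to 7 without any other array. It was 2 on the 6 arrays with castrated RNA in Cy5. Il1r2 lay below the granulocyte median on 5 of 9 arrays, Arg2 on 5, Pilra on 7, Slpi on 3 and Lpcat2 on 7, with median gaps between -0.11 and 0.01. The part of granulocyte content in the ratios of the 5 genes was not tested. Under the channel reading the granulocyte median was 0.01.

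The other lists did not run with the 5 genes on every array. Of 10 monocyte, macrophage and dendritic features 3 were down (Mpeg1 and both of Ccr2) and 1 was up (the class II gene H2-Eb1), with a median of -0.09. The 3 became 1 without young bone replicate 3, and 0 without young marrow replicate 2 or old replicate 2. The 1 up became 0 without young bone replicate 3 or any 1 of the 3 young marrow arrays. On the 6 arrays with castrated RNA in Cy5, 1 was down and 0 were up. The B lymphocyte list was positive on 9 of 9 arrays, with 5 of 6 features up, against 2.01% of all features, and a median of 0.86. By limma 0 of 3 erythroid features passed (median 0.003), 0 of 8 of skeletal muscle (-0.12) and 0 of 7 of osteoblasts and bone matrix (0.32). Muscle markers spread widely, from -1.09 on young bone replicate 1 to 0.66 on old replicate 1. The median of osteoblast and bone matrix markers ran from -0.265 on old replicate 1 to 1.28 on young bone replicate 2. It was above 0 on 8 of 9 arrays. With array weights, 6 of its 7 features were up and 3 of the 8 muscle features were down. All these calls are under the castrated-over-sham reading; under the channel reading 0 features passed in any list.

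**Figure D5:**
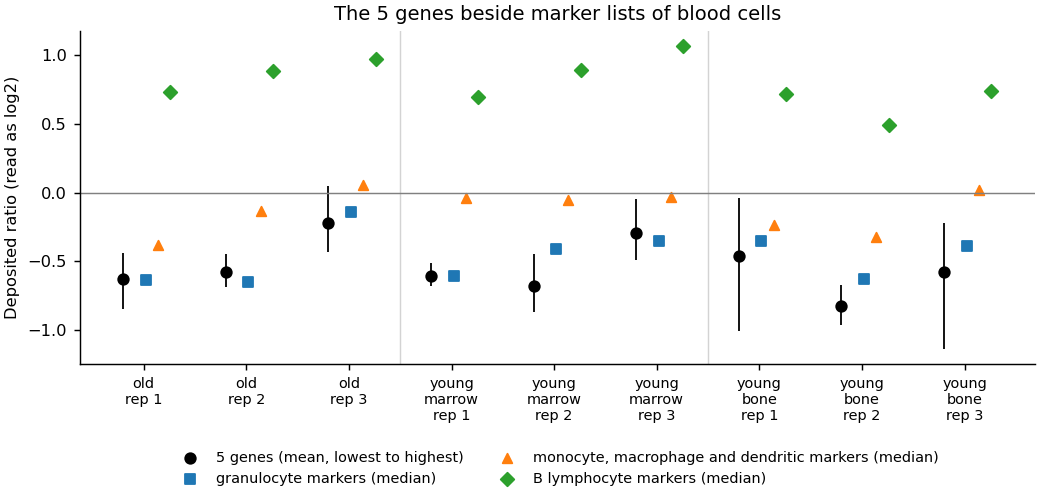
Mean of the 5 genes (black points, with lines from the lowest to the highest gene) and medians of 3 marker lists on each array; the vertical axis is the deposited ratio, read as log2. Granulocyte markers stand between -0.65 and -0.14, near the 5 genes, and B lymphocyte markers stand above 0 on all 9 arrays.

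Other genes of the same pathways were counted from lists, without the 5 genes themselves. Of all features, 2.03% were down and 2.01% up in the average by limma. The genes tested were 12 of 22 listed for the interleukin-1 system, 10 of 23 for arginine metabolism and 6 of 24 for inhibitory receptors. They were 13 of 29 for proteases and their inhibitors and 5 of 23 for lipid mediators. The lists were chosen with earlier results of these data known, so the counts are descriptions. In the interleukin-1 system 2 of 25 features (12 genes) were down in the average by limma and 0 were up, with a median of -0.007. They were Il1rap, the accessory chain that both interleukin-1 receptors engage (-0.40, SE 0.06, adjusted p = 0.004, negative on 9 of 9 arrays), and Il18rap, the accessory chain of the interleukin-18 receptor (-0.52, SE 0.09, adjusted p = 0.0087, 9 of 9). Il1rap lay between -0.60 and -0.23 over the arrays. Il18rap reached from -1.0 to -0.15. The count of 2 became 0 without young marrow replicate 2 and 1 without old replicate 2 or on the 6 arrays with castrated RNA in Cy5.

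In arginine, polyamine and nitric oxide metabolism 2 of 19 features (10 genes) were down and 0 were up, with a median of -0.03. Both are features of Sat1, which acetylates the polyamines made downstream of ornithine (-0.37 and -0.36, adjusted p = 0.027 and 0.047 by limma). Their fitted values were -0.59 and -0.51 in the old group, -0.25 and -0.31 in young marrow, and -0.25 in each feature in young bone. A further feature of Sat1 did not pass (-0.20, adjusted p = 0.201, negative on 7 of 9 arrays), with -0.18 in the old group, -0.25 in young marrow and -0.17 in young bone. The count of 2 was 0 without old replicate 2, young marrow replicates 1 or 2, or young bone replicates 2 or 3, 1 without old replicate 1, young marrow replicate 3 or young bone replicate 1, and 3 without old replicate 3. It was 1 with arrays centred on the median and 0 on the 6 arrays with castrated RNA in Cy5.

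Among inhibitory myeloid receptors and their signalling, 6 features of 6 genes were tested, with 0 down, 1 up and a median of -0.02. The 1 up was Siglecg, a sialic acid receptor best known as a brake on B cells (0.76, SE 0.06, limma adjusted p = 0.00012, positive on 9 of 9 arrays). Ceacam1, an inhibitory adhesion receptor, stood at -0.25 and did not pass (adjusted p = 0.086).

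Of the proteases of leukocytes and their inhibitors, 7 of 18 features (13 genes) were down and 0 were up, with a median of -0.22. The proteases were Ctsg (-0.55 in both features) and Prtn3 (-0.30 and -0.29), which are also in the granulocyte list, and the metalloproteinases Mmp9 (-0.43) and Mmp8 (-0.41). The 1 inhibitor was Serpinb6a, an intracellular serpin (-0.34, SE 0.06, adjusted p = 0.013 by limma, negative on 9 of 9 arrays). Slpi and cathepsin G, a protease that it inhibits, both had negative ratios. The count of 7 was 1 without old replicate 2, 2 without young marrow replicate 2, 3 without young bone replicate 3, 4 without young marrow replicate 1 or young bone replicate 2, and 5 to 10 without any other array. On the 6 arrays with castrated RNA in Cy5, 1 feature was down and 1 was up.

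In lysophospholipid remodelling, platelet-activating factor and eicosanoids 1 of 6 features (5 genes) was down, 1 was up, and the median was -0.07. Anxa1, an anti-inflammatory annexin that is also in the granulocyte list, was down (-0.55, SE 0.06, limma adjusted p = 0.00079, 9 of 9 arrays). Pafah1b3, a subunit of an enzyme that inactivates platelet-activating factor, was up (0.91, SE 0.09, limma adjusted p = 0.00021, 9 of 9 arrays), opposite in sign to Lpcat2. The 5 pathway lists had medians between -0.07 and 0.03 under the channel reading.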

How the data were processed

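Log ratios of 9 two-colour arrays were analysed. The deposited values are log ratios of the channels made by the authors and were read as log2; their base, direction, background treatment and normalization are not given in the sources used here. Natural logs cannot be told apart from log2. Array means lay within 0.0021 of 0. Features were named from the platform annotation, and symbols were brought up to date through gene IDs in RefSeq (GRCm38.p6): 8050 features had 1 symbol, 672 several and 2830 none. Protein sequences were not used here.

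Features with a value on at least 2 arrays of each group and on at least 1 array with castrated RNA in Cy3 were tested (8885). Least squares with 1 coefficient per group and a dye term (5 residual degrees of freedom) was fitted for each pattern of missing values, and variances were moderated with limma 3.58.1 in R 4.3.3. P values were adjusted by Benjamini-Hochberg at a threshold of 0.05. The routine was tested on simulated data, recovering 85% of averages of 0.5. The 5 genes, the lists and the rules were chosen with earlier results of these data known. Every feature of the 5 genes was named; of each pathway list, the features past the threshold in the average, or otherwise the 2 of smallest p, were eligible; marker genes are named where they passed. The labels do not say that equal replicate numbers of young bone and young marrow share mice. Old and young arrays held mice of different ages, so equal numbers there are not the same mice. Deviations from the group means correlated over 0.1 in all 3 same-numbered pairs of old and young marrow arrays (0.60, 0.27 and 0.30), which were therefore also fitted as pairs. Equal numbers share the dye layout there, whose part in the correlation was not tested. With young bone, 1 of 6 same-numbered pairs was over 0.1 (-0.37 to 0.38). Differently numbered pairs ran from -0.41 to 0.40 with young bone, and from -0.52 to 0.13 between old and young marrow. Deviations sum to 0 within a group, so these correlations are not independent of each other. Intensities were not used here, so how far signals stood above background is unknown; precision is limited by the number of arrays. Alternatives covered the reading, the dye term, scaling, filters, array weights, the arrays used, the replicate number and each array left out.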

Additional observations from a re-analysis of the deposited data

How the results depend on the processing

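The averages of the 9 features stayed below 0 in all 17 alternatives other than the channel reading, between -0.78 (Il1r2 feature 4832) and -0.37 (Slpi). The genes were chosen on this average, or on its young bone part for Slpi, so the sign is a description and no test. Of the 25 differences between groups, 0 passed in any of 19 alternatives; the smallest adjusted p was 0.127 (Slpi, old minus young marrow, array weights). Counts over all features moved more, and the cause was not tested. In the average 359 features passed, with 0 under the channel reading (418 at an unadjusted p under 0.05), 1599 with array weights, 86 on the 6 arrays with castrated RNA in Cy5 and 411 with the replicate number as a block. The block changed no call of the 5 genes. Leaving out 1 array gave 96 to 574, beyond 1.5 times without young bone replicate 3 (142), young marrow replicates 1 (177), 2 (96) and 3 (219), and old replicates 2 (109) and 3 (574). Old minus young marrow had 0 (1292 unadjusted), 2 on features with all values, 1975 with array weights, and 0 to 885 leaving out 1 array, 885 being without old replicate 3. Young marrow minus young bone had 0 (455 unadjusted), 13 with array weights, and 0 leaving out any 1 array. Old minus young bone had 1; it was 0 under the channel reading, without a dye term, without a filter, on the 6 arrays or with the replicate block, 2 with array weights, and 0 to 31 leaving out 1 array (31 without old replicate 3, 0 without any other). The array weights ran from 0.35 to 5.14 and their fit stopped before convergence. With old and young marrow arrays paired by number, a fit chosen after seeing the data, old minus young marrow had 0 calls (2174 unadjusted), and Slpi had the smallest adjusted p of the 5 genes (0.22, SE 0.11, adjusted p = 0.257).

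Differences near 0 changed sign. In old minus young marrow, arrays scaled to 1 SD gave 0.071 and 0.075 for the features of Il1r2, 0.026 for Pilra feature 6446 and 0.16 for Lpcat2 feature 6679; array weights gave 0.10 and 0.09 for Il1r2 and 0.033 for Lpcat2 feature 6679; centring on the median gave 0.003 for Il1r2 feature 5024 and 0.03 for Lpcat2 feature 6679; the channel reading gave -0.017 for Lpcat2 feature 1226. For Pilra feature 5626, young marrow minus young bone was -0.05 with scaling and -0.035 with weights. Leaving out 1 array, old minus young marrow ran from -0.33 to 0.13 and from -0.29 to 0.19 for Il1r2, -0.058 to 0.208 for Arg2, -0.074 to 0.167 and -0.279 to 0.021 for Pilra, and -0.081 to 0.273, -0.043 to 0.23 and -0.12 to 0.14 for Lpcat2. Old minus young bone ran from 0.13 to 0.58 and 0.10 to 0.61 for Il1r2, -0.12 to 0.32 for Pilra feature 5626, -0.30 to 0.01 for Lpcat2 feature 1418 and -0.25 to 0.15 for feature 6679. Young marrow minus young bone ran from 0.07 to 0.65 for Il1r2 feature 5024, 0.04 to 0.29 for Arg2, -0.17 to 0.28 and -0.145 to 0.089 for Pilra and -0.235 to 0.16 for Lpcat2 feature 6679. Of the other values, 39 moved by more than the SD between arrays, 35 of them under the channel reading.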
